A study of Mus musculus with 36 samples.

Results

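The experiment described here set the leucine form of human GKRP (GKRP-446L, hL) against its proline form (GKRP-446P, hP) in mouse hepatocytes that also overexpressed glucokinase (GK). It took 6 of the 36 cultures of the series, 3 with GK+hL and 3 with GK+hP, 1 of each from each of 3 mice, and the cultures were chosen by their labels and paired by mouse, that is by hepatocyte preparation. All genes with enough reads were compared, 12177 of the 52230 genes in the gene table. The question was whether the P446L substitution, the product of a common variant of human GCKR, alters the transcriptome when GK is in excess.

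GK phosphorylates glucose in hepatocytes and so sets the rate of glucose uptake, glycolysis and glycogen synthesis. GKRP, the product of Gckr, binds GK, inhibits it and holds it in the nucleus at low glucose, and the complex is loosened by high glucose and by fructose 1-phosphate. Raised glucose phosphorylation acts on transcription largely through ChREBP, a glucose-responsive factor that induces genes of glycolysis, fructose metabolism and lipogenesis such as Pklr and Txnip.

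Hepatocytes came from female P446L mice aged 14 weeks. The labels give the genotype of mice 1 and 2 as Gckr-446L and that of mouse 3 as Gckr-446P/L. By these labels every culture carried a mouse 446L allele; the study's methods describe homozygous 446L mice, and its labels treat the cells as deficient in GKRP. Human GKRP (hP or hL) and rat GK were delivered by adenoviral vectors, with the GK titre set to raise GK a few-fold. Cells were cultured for 24 h at 5 mM glucose with 10 nM insulin and 10 nM dexamethasone, then kept for 4 h at 25 mM glucose before RNA extraction. The comparison groups used below are untreated cells (UN), GK alone (GK), hP or hL at endogenous GK, and GK with mouse GKRP-446P or GKRP-446L (GK+mP, GK+mL), all from the same 3 mice. A replicate is a mouse. Since the mouse is a term of the model and all 10 conditions enter it, p-values rest on the spread that remains within mice over 30 samples.

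GK+hP libraries held 5524077, 6304122 and 7230927 reads in mice 1 to 3 and GK+hL libraries 5342667, 5393395 and 4569187, so the GK+hL library was the smaller in every mouse. Levels are given as CPM (reads scaled to a common library size with TMM factors) in the order mouse 1, 2 and 3. The marker sums are the exception, being CPM of the whole library without TMM factors. Summed over the 10 hepatocyte markers, levels ranged from 92448 to 120796 CPM with GK+hL and from 82201 to 112812 CPM with GK+hP. The 12 macrophage markers summed to between 311 and 345 CPM and between 305 and 396 CPM respectively, and the 10 endothelial markers to between 103 and 168 CPM and between 104 and 158 CPM. Stellate markers (9 genes, 28.5 to 143 CPM), cholangiocyte markers (6 genes, 16.6 to 173 CPM) and lymphocyte markers (6 genes, 0.69 to 3.65 CPM) were low in both groups; Cftr was at 0 in all GK+hL libraries and Cd3g and Nkg7 in all 6 libraries. Reads from mitochondrially encoded genes were 6.37%, 7.58% and 7.05% of the GK+hL libraries and 5.64%, 7.22% and 6.63% of the GK+hP libraries, higher with GK+hL in each mouse. The part of depth and of mitochondrial reads in the differences below was not tested.

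Mouse Gckr, the endogenous gene, stood at 45.9, 67.2 and 70.8 CPM with GK+hP and at 46.2, 69.3 and 70.1 CPM with GK+hL, a log2 difference of 0.02 (SE 0.56). Human GCKR is not among the mouse transcripts the reads were assigned to, so the levels of hP and hL RNA were not analysed here and the comparison is not corrected for them.

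With GK+hL, 15 genes were called higher and 1 lower than with GK+hP (edgeR quasi-likelihood test with the mouse as a block, Benjamini-Hochberg adjusted p under 0.05 with a ratio of 1.3 or more, or 0.7 or less). These are 0.123% and 0.00821% of the genes tested. At an unadjusted p under 0.05, 472 genes were higher (3.88%) and 366 lower (3.01%). The median log2 difference over all genes was 0.01, and 15% of genes were higher and 14.5% lower in all 3 mice. The genes called higher were Tiparp, Vegfa, Hmox1, Ddit4, Rgs2, Pnrc1, Bag2, Dusp1, Depp1, Adm, Rnf217, Egln3, Ero1a, Pfkfb3 and Bhlhe40, with rises of 1.37-fold (Ero1a) to 2.71-fold (Depp1). They include secreted factors, enzymes of oxygen and redox handling, a regulator of glycolysis and inhibitors of signalling. The calls depended on the pairing and on the number of libraries: without the mouse as a block none of the 15 was called (adjusted p 1.00 for each), and without mouse 1, 2 or 3 there were 0, 3 and 0 genes called higher. Scaling each gene by its estimated transcript length, or fitting the 6 libraries alone, also gave 0 calls, whereas DESeq2 with the mouse as a term called 38 higher and 12 lower; all 15 genes kept their direction under each of these settings.

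**Figure D1:**
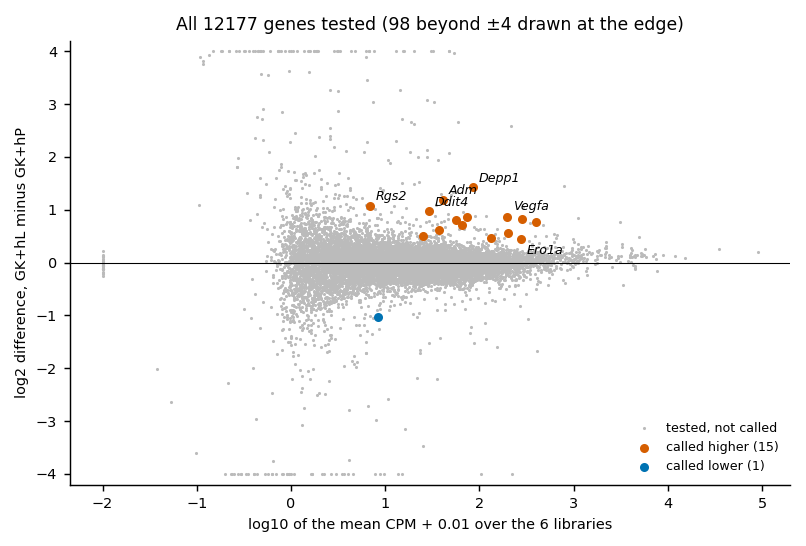
Fitted log2 difference between GK+hL and GK+hP (vertical axis) against the mean CPM of the 6 libraries (log10 axis, with 0.01 added) for 12177 genes. The 15 genes called higher have differences of 0.46 to 1.44, and the 1 gene called lower lies at -1.03. Rgs2 is the least abundant of the 15, with means of 4.35 CPM with GK+hP and 9.38 CPM with GK+hL. The 98 genes beyond ±4 are drawn at the edge.

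Secreted factors of the vasculature were among the genes called higher. Vegfa (GRCm39 chr17:46327919-46343309) encodes the vascular endothelial growth factor, a standard target of hypoxia-inducible factors. Its level was 73.9, 238 and 121 CPM with GK+hP and 145, 355 and 249 CPM with GK+hL, a log2 difference of 0.87 (SE 0.14, adjusted p 0.00946). Every mouse was higher with GK+hL, but the groups overlapped because mouse 2 with GK+hP exceeded mouse 1 with GK+hL. Adm (chr7:110226858-110229027) encodes adrenomedullin, a vasodilator peptide also induced by low oxygen. It stood at 13.8, 41.7 and 22.1 CPM with GK+hP and at 32.3, 76.2 and 61.5 CPM with GK+hL (log2 difference 1.19, SE 0.22, adjusted p 0.0249).

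Enzymes of oxygen sensing and redox handling formed a further group. Egln3 (chr12:54225767-54250673), a prolyl hydroxylase that marks hypoxia-inducible factors for degradation and is itself one of their targets, rose from 85.3, 373 and 200 CPM to 190, 503 and 359 CPM, a log2 difference of 0.82 (SE 0.16, adjusted p 0.0304). Hmox1 (chr8:75820241-75827217), the inducible haem oxygenase that breaks haem down to biliverdin, iron and carbon monoxide, rose from 152, 489 and 261 CPM to 300, 780 and 404 CPM (0.76, SE 0.12, adjusted p 0.00946). Ero1a (chr14:45520541-45556228), the oxidase that supplies disulphide bonds in the endoplasmic reticulum, went from 121, 343 and 239 CPM to 181, 465 and 303 CPM (0.46, SE 0.09, adjusted p 0.0304). In each of these the rise was present in every mouse, the level differed several-fold between mice, and the groups overlapped.

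Among genes tied to energy metabolism, Pfkfb3 (chr2:11476244-11558888) makes fructose 2,6-bisphosphate, the main allosteric activator of phosphofructokinase and hence of glycolysis. It stood at 38.7, 71.4 and 47.8 CPM with GK+hP and at 71.2, 101 and 112 CPM with GK+hL, a log2 difference of 0.86 (SE 0.17, adjusted p 0.0304). Ddit4 (chr10:59785491-59788492), known as REDD1, inhibits mTORC1 under energy or oxygen shortage. Its 3 GK+hL libraries (32.3, 45.4 and 36.4 CPM) all exceeded the 3 GK+hP libraries (15.3, 25.7 and 17.9 CPM), with a log2 difference of 0.98 (SE 0.16, adjusted p 0.0122). Depp1 (chr6:116627570-116629755), a target of FOXO factors, had the largest difference of the 15 genes, 1.44 (SE 0.26, adjusted p 0.0240). It moved from 17.7, 116 and 33.4 CPM to 75.3, 176 and 98.3 CPM, and the size of its rise was uneven between mice.

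Several of the remaining genes encode brakes on signalling. Tiparp (chr3:65435320-65463365), an ADP-ribosyltransferase that represses the aryl hydrocarbon receptor, had the smallest adjusted p (0.00775) with a log2 difference of 0.72 (SE 0.10). Its GK+hL libraries held 65.9, 94.3 and 85.1 CPM and its GK+hP libraries 41.1, 60.3 and 47.5 CPM, with no overlap. Dusp1 (chr17:26724564-26781102), a phosphatase that switches off MAP kinases, was likewise separated between groups, at 156, 139 and 162 CPM against 107, 97.1 and 128 CPM (0.47, SE 0.08, adjusted p 0.0209). Rgs2 (chr1:143875076-143879899), which shortens signalling through G proteins, was the least abundant of the 15 and went from 2.55, 6.3 and 4.19 CPM to 5.07, 15.1 and 8 CPM (1.07, SE 0.18, adjusted p 0.0122).

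The other 4 genes act in transcription and protein turnover. Bhlhe40 (chr6:108636626-108644502), a transcriptional repressor of the clock network, stood at 150, 212 and 130 CPM with GK+hP and at 214, 278 and 223 CPM with GK+hL (0.56, SE 0.11, adjusted p 0.0376), without overlap. Pnrc1 (chr4:33244989-33290176), a coactivator of nuclear receptors, rose from 21.7, 62.2 and 42.6 CPM to 46.4, 91.3 and 72 CPM (0.81, SE 0.14, adjusted p 0.0128). Bag2 (chr1:33784560-33797058) encodes a co-chaperone of Hsp70 and Rnf217 (chr10:31369189-31485866) a RING finger protein of the ubiquitin ligase class. They rose by 0.62 (SE 0.11, adjusted p 0.0209) and 0.50 (SE 0.09, adjusted p 0.0249) on the log2 scale, in 3 of 3 mice each.

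**Figure D2:**
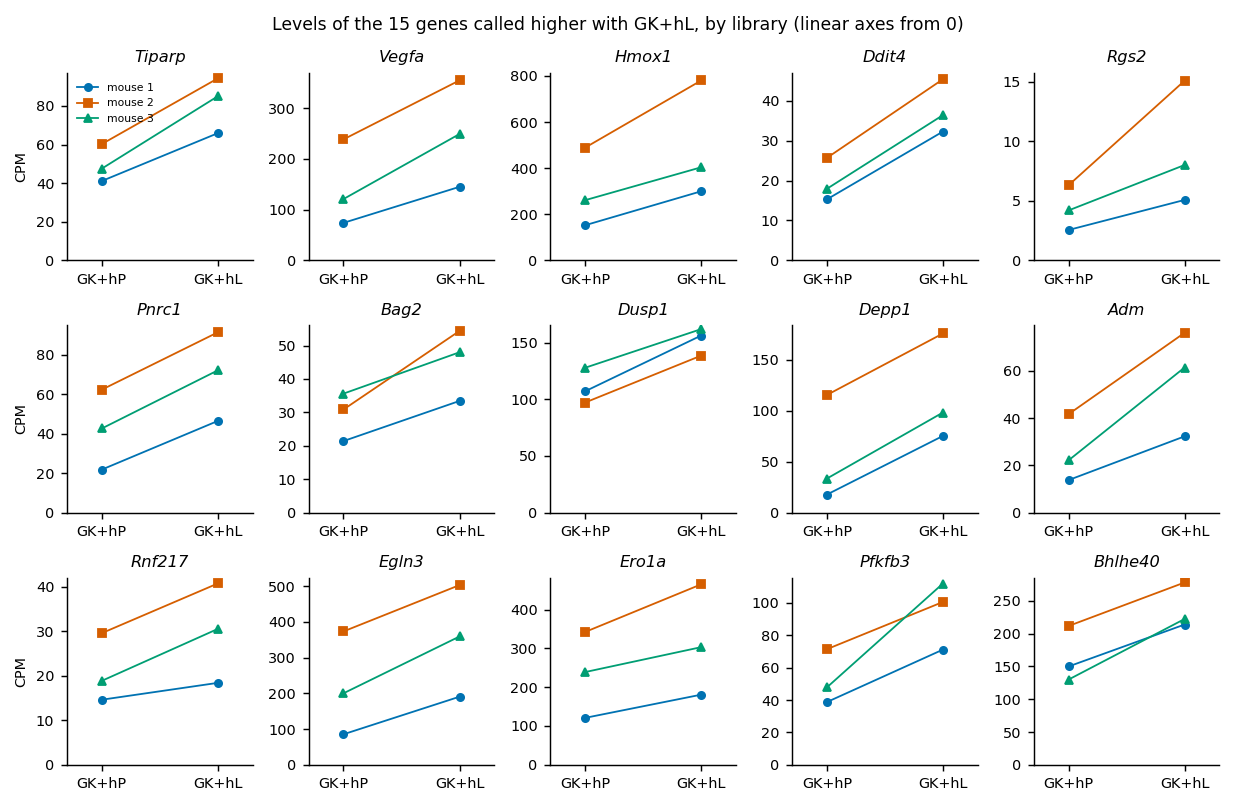
Level (CPM, linear axes from 0) of each of the 15 genes called higher, in the GK+hP and GK+hL libraries of mice 1 to 3; a line joins the 2 libraries of a mouse. Every line rises, and in 11 of the 15 panels the GK+hP point of one mouse lies above the GK+hL point of another.

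The levels of these genes ran in parallel across mice. With GK+hP, mouse 1 was the lowest for 13 of the 15 genes and mouse 2 the highest for 13, and the ratio of mouse 2 to mouse 1 ranged from 0.907 to 6.54. Only Tiparp, Ddit4, Dusp1 and Bhlhe40, 4 of the 15, had every GK+hL library above every GK+hP library, a pattern seen in 3.07% of all genes. Just outside the threshold, and named after their values were seen, were Slc2a1, the GLUT1 glucose transporter (log2 difference 0.55, SE 0.11, adjusted p 0.0557), Igfbp1, a secreted binding protein of insulin-like growth factors (0.64, SE 0.13, adjusted p 0.0612), Cited2, a coregulator that competes with hypoxia-inducible factors for p300 (0.79, SE 0.17, adjusted p 0.0651), and Ankrd37 (1.37, SE 0.29, adjusted p 0.0692). None of these 4 was called.

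The single gene called lower was 2610005L07Rik (ENSMUSG00000121345, chr8:20016186-20115048), a long non-coding RNA of unassigned function that shares its symbol with another annotated gene. It stood at 10.4, 12.8 and 10.5 CPM with GK+hP and at 4.69, 5.3 and 6.32 CPM with GK+hL, a log2 difference of -1.03 (SE 0.19, adjusted p 0.0209). No other gene passed in this direction. The lower genes of smallest unadjusted p with at least 10 CPM were Sall1, a zinc finger transcription factor (-0.55, SE 0.12, adjusted p 0.0931), the polyadenylation factor Cpsf7 (-0.28, SE 0.07, adjusted p 0.198), the kinases Map3k14 (-0.76, SE 0.20, adjusted p 0.253) and Map3k13 (-0.79, SE 0.21, adjusted p 0.299), and the ceramide transporter Cert1 (-0.41, SE 0.11, adjusted p 0.266). Mau2, Chka, Myo19, Ocel1 and Dtx4 lay between -0.66 and -0.30. The value of Rab12, a small GTPase, is uncertain: it was 38.9, 21.2 and 29.1 CPM with GK+hP and 0.376, 0 and 0 CPM with GK+hL, but it was also under 1 CPM in all 3 hL libraries, in 1 sample each of hP, mP and GK and in 2 of GK+mP, and its gene overlaps the long non-coding gene Gm41608.

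To see where GK+hP and GK+hL lie relative to the vectors' absence, the 15 genes were followed over the other conditions; since GK+hP and GK+hL values chose the genes, this order is a description. The mean of GK+hP was below the mean of untreated cells for 15 of 15 genes and below GK alone for 15 of 15. The mean of GK+hL was above untreated cells for 15 and above GK alone for 11. The GK alone sample of mouse 3 held 845 CPM of Gckr, against 54.4 and 69.5 CPM in mice 1 and 2. Over mice 1 and 2, GK+hP was below GK alone for 15 genes (51.2% of all genes). GK+hL was above GK alone for 12 (51% of all genes). Vegfa stood at 90.6, 333 and 150 CPM in untreated cells, at 74.5, 256 and 106 CPM with hP, 108, 408 and 209 CPM with hL, and 132, 319 and 214 CPM with GK alone. Egln3 stood at 113, 487 and 327 CPM in untreated cells and at 176, 467 and 336 CPM with GK alone, so GK+hL (190, 503 and 359 CPM) lay near GK alone and GK+hP (85.3, 373 and 200 CPM) below both. Pfkfb3 differed from this: GK alone gave 129, 133 and 149 CPM, above GK+hL in every mouse. The same held for Bhlhe40 (266, 324 and 322 CPM with GK alone) and Dusp1 (168, 161 and 208 CPM). The Ero1a mean was also higher with GK alone (323 CPM) than with GK+hL (317 CPM). At endogenous GK the hP mean was below the untreated mean for 14 of the 15 genes, and this held for 49.6% of all genes. These means use neither GK+hP nor GK+hL, but the libraries entered the shared fit that made the calls. Untreated cells carried no vector, GK alone carried no GKRP vector, and no condition had an empty vector. In comparisons with untreated cells or GK alone, GKRP therefore cannot be told apart from vector load.

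**Figure D3:**
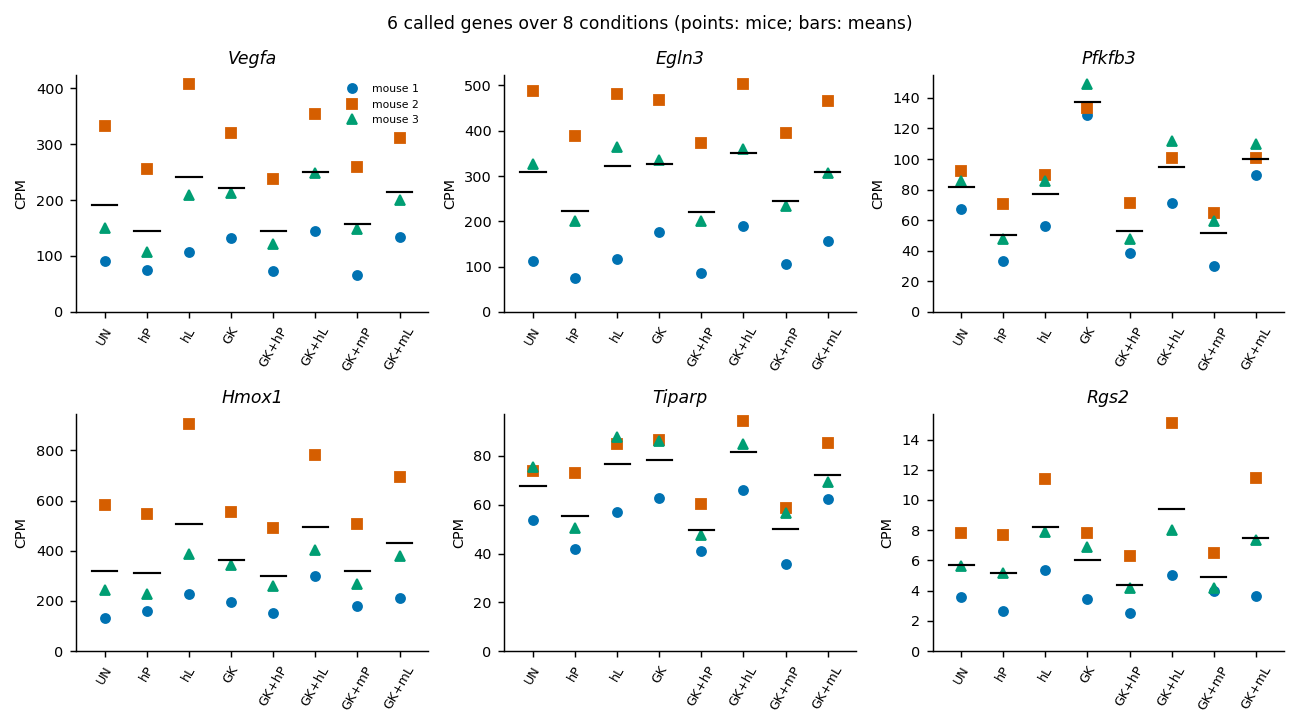
Levels (CPM, linear axes from 0) of Vegfa, Egln3, Pfkfb3, Hmox1, Tiparp and Rgs2 in 8 conditions; points are mice and bars are means over 3 mice. In every panel the means of hP, GK+hP and GK+mP lie below those of hL, GK+hL and GK+mL, and Pfkfb3 is highest with GK alone.

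The same 15 genes were then read in other pairs of libraries. Those libraries had entered the shared fit, and with it the estimate of the spread on which the calls rested. The p-values below use that same estimate and are not independent of the choice. At endogenous GK, hL was compared with hP in the same mice but in different cultures. All 15 genes were higher with hL, all 15 in 3 of 3 mice (13.8% of all genes) and all 15 at an unadjusted p under 0.05 (2.85% of all genes were higher at that level), with a median log2 difference of 0.60 (range 0.26 to 1.22) against 0.01 over all genes. None of the 15 passed the adjusted threshold in the edgeR fit of all 12177 genes, and neither did any other gene (0%). At an unadjusted p under 0.05 in that test, 347 genes were higher and 271 lower. DESeq2 with the mouse as a term called 37 higher, 10 of the 15 among them. The edgeR fit of genes with at least 10 CPM in 3 samples called 4 higher, 2 of the 15 among them. All 15 kept this direction in the other fits that gave it, but the number at an unadjusted p under 0.05 fell to 2 without the mouse as a block, 3 with DESeq2 without the mouse and 6 with the transcript length offset. Adm had the largest difference, 1.22 (SE 0.22), followed by Depp1 with 1.10 (SE 0.26) and Ddit4 with 0.81 (SE 0.16).

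With GK and mouse GKRP, GK+mL against GK+mP, all 15 genes were again higher, 14 in 3 of 3 mice (12.2% of all genes) and 14 at an unadjusted p under 0.05 (4.89% of all genes), with a median of 0.45 (range 0.14 to 1.07). Tiparp, Adm, Ero1a and Pfkfb3 were called, 4 of 15 against 0.189% of all genes (23 genes). None of the 15 was called without the block, with the transcript length offset, with the 5 GK conditions alone or with any mouse left out, and 1 was called with each culture as a sample; with the length offset 12 of 15 were higher and 2 reached an unadjusted p under 0.05. Pfkfb3 differed most in adjusted p (log2 difference 1.02, SE 0.17, adjusted p 0.0103), and Pnrc1 was the exception, at 0.14 (SE 0.14). The 3 pairs of conditions share mice but no library, so a trait of a mouse is common to them. In untreated libraries Vegfa and Egln3 also differed between mice.

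**Figure D4:**
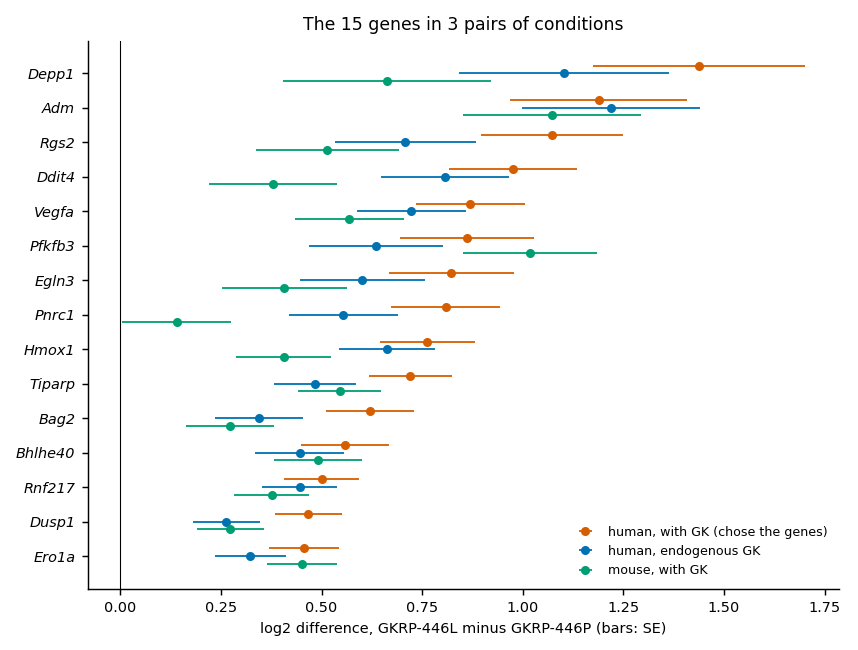
Log2 difference between GKRP-446L and GKRP-446P (horizontal axis, bars are SE) of the 15 genes for human GKRP with GK, human GKRP at endogenous GK and mouse GKRP with GK. The first pair chose the genes; in the other pairs every point lies to the right of 0.

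Whether GK overexpression altered the hL and hP difference was tested gene by gene as an interaction. No gene of 12177 passed (edgeR, smallest adjusted p 0.996), with 469 at an unadjusted p under 0.05 and 16 called by DESeq2. None of the 15 genes had an unadjusted p under 0.05, and their interaction ranged from -0.03 to 0.37 with a median of 0.20. For Vegfa it was 0.15 with a 95% interval of -0.25 to 0.54, and for Adm -0.03 with an interval of -0.67 to 0.61, so the intervals still hold differences of up to these bounds. Between mouse and human GKRP with GK, no gene passed either (edgeR, smallest adjusted p 0.330), with 1232 at an unadjusted p under 0.05 and 16 called by DESeq2. Of the 15 genes, 14 had a smaller difference with mouse GKRP, with a median of -0.30, and Hmox1, Ddit4, Pnrc1, Bag2 and Depp1 had an unadjusted p under 0.05; since the human difference chose the genes, a smaller value elsewhere is not a test.

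To show the sequence context of the called genes, the 250 bases before the gene start were searched for ACGTG on either strand, the core letters of elements bound by hypoxia-inducible factors and, as CACGTG, by E-box factors. The motif was chosen after the values had been seen. RefSeq promoters (GRCm38.p6) were held for 13 of the 15 genes, all but Bhlhe40 and Hmox1, and 7 of the 13 had a match, against 18.5% of 27025 genes and 16.6% of 32851 promoters. The related letters GCGTG were found in 9 of the 13, against 30.9% of genes. These shares cover all genes with a promoter held, whether or not they were tested here. The shares among tested genes alone were not computed. Each match is printed below 5′ to 3′ on the strand of the gene, with 10 flanking bases on either side in lower case and the match in capitals (CACGT is ACGTG on the other strand, and CACGTG holds both); Pfkfb3 has 2 start sites, and Vegfa had a match at the second of its 2.
Pfkfb3, chr2:11553975-11553999, minus strand: ccgcgccgtgACGTGccaagctgtg
Pfkfb3, chr2:11502128-11502153, minus strand: cccttctctcCACGTGaaagggggct
Ddit4, chr10:59951943-59951967, minus strand: aacgttgcgaACGTGcgcccggtgc
Egln3, chr12:54204089-54204113, minus strand: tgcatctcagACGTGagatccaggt
Ero1a, chr14:45318621-45318645, minus strand: cgcgccgctgCACGTccgcagggga
Dusp1, chr17:26508583-26508608, minus strand: accgcccggtCACGTGtctgccattc
Vegfa, chr17:46025360-46025384, minus strand: agtgcgtgccCACGTcagagagcaa
Rnf217, chr10:31609758-31609782, minus strand: gtatgtgtgtACGTGtggggaggtg

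The matches began between 229 bases (Egln3) and 47 bases (Rnf217) before the gene start. A match is a description of the letters and not of binding. The called genes without a match in this window were Tiparp, Rgs2, Pnrc1, Bag2, Depp1 and Adm.

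The genes that GK overexpression induced, 17 named by the study from the same series of cultures, were the second question of the comparison, since GKRP counters GK. All 17 had a positive fitted difference, 11 of them in 3 of 3 mice, and the median was 0.43 (0.54, 0.32 and 0.41 in mice 1 to 3) against 0.01 over all genes. None was called, and 5 had an unadjusted p under 0.05. Over all genes 51.6% were higher, 15% were higher in 3 of 3 mice and 0.123% were called higher. In the edgeR test 3.88% of all genes were higher at an unadjusted p under 0.05. With so low a share called, the lack of calls among 17 genes says little about them. The study chose its GK-induced genes from GK alone against the conditions at endogenous GK, hP and hL among them. A part of them it also chose by their fall when human or mouse GKRP was added to GK, which used GK+hP, GK+hL, GK+mP and GK+mL libraries. The direction of the 17 genes as a set is therefore not independent evidence. Rgs16, an inhibitor of G protein signalling induced by ChREBP, had the largest value: 5.44, 7.11 and 3.01 CPM with GK+hP against 11.6, 19.6 and 8.63 CPM with GK+hL, a log2 difference of 1.35 (SE 0.40, adjusted p 0.392), without overlap. Angptl8, a secreted inhibitor of lipoprotein lipase, had 5.1, 9.53 and 8.51 CPM against 14.8, 18.7 and 11.8 CPM (0.95, SE 0.40, adjusted p 0.675).

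The mitochondrial carrier Slc25a47 differed by 0.57 (SE 0.25, adjusted p 0.697) and the monocarboxylate transporter Slc16a1 by 0.24 (SE 0.07, adjusted p 0.385). Pklr, the liver pyruvate kinase and the classic ChREBP target, stood at 68.1, 40.2 and 68.6 CPM against 70, 48.9 and 71.6 CPM, a difference of 0.13 with a 95% interval of -0.18 to 0.43. For Tkfc, a kinase of fructose metabolism, the difference was 0.24 (interval -0.06 to 0.53), and for the mitochondrial carrier Slc25a44 it was 0.01 (interval -0.23 to 0.26). Their differences with mouse GKRP were 0.87 (SE 0.15) for Pklr, 0.89 (SE 0.14) for Tkfc and 0.61 (SE 0.12) for Slc25a44, each called. These calls also depended on the fit: 23 genes were called higher with GK+mL, and the count was 0 with the transcript length offset, 2 without the block, 5 with the GK conditions alone and 9, 1 and 2 without mouse 1, 2 and 3. The gene-by-gene interaction with species did not pass for them in the edgeR test (adjusted p 0.476 for each). It was 0.75 for Pklr (95% interval 0.32 to 1.18), 0.65 for Tkfc (0.24 to 1.07) and 0.60 for Slc25a44 (0.25 to 0.94). These intervals are not adjusted for the number of genes tested. Over the 17 genes the median was 1.24 for mouse GKRP with GK and 0.10 for human GKRP at endogenous GK, where 12 of 17 were higher. Libraries of both these pairs had also entered the study's choice of the genes, so these medians are descriptions.

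**Figure D5:**
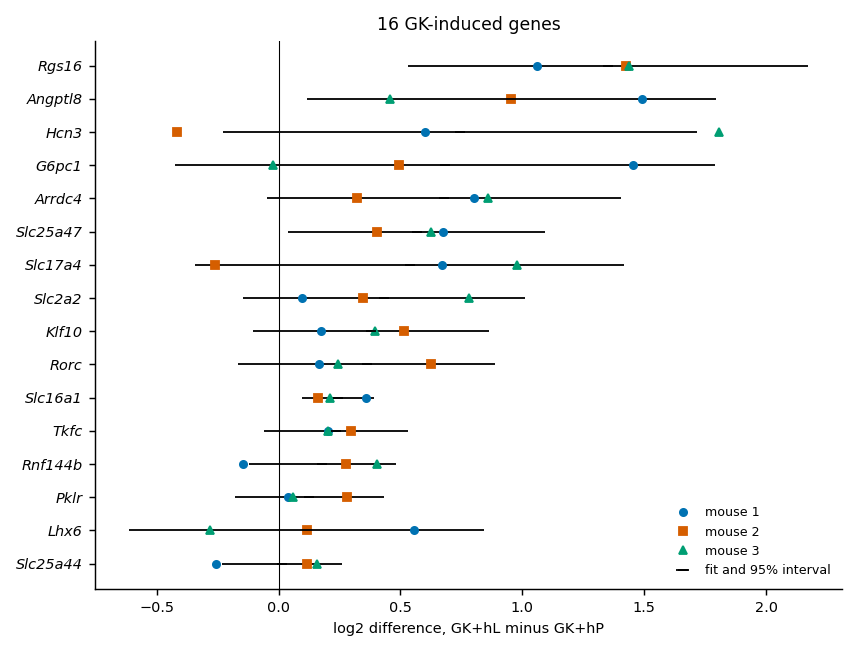
Log2 difference between GK+hL and GK+hP (horizontal axis) of 16 GK-induced genes, with the fitted value and its 95% interval in black and the 3 mice as coloured points. Every fitted value lies at or above 0, and the intervals of 4 genes (Rgs16, Angptl8, Slc25a47 and Slc16a1) do not reach 0.

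Wider lists of carbohydrate metabolism were described in the same way, by counts and medians beside the median of 0.01 over all genes; no list test was made. Of all genes, 51.6% were higher, 3.88% were higher at an unadjusted p under 0.05 and 0.123% were called higher. Of 24 ChREBP targets tested, 18 were higher and 6 lower, 5 of them higher at an unadjusted p under 0.05, with a median of 0.18; Txnip, the arrestin that limits glucose uptake, differed by 0.67 (SE 0.29, adjusted p 0.695). Of 23 glycolysis genes, 20 were higher, 9 at an unadjusted p under 0.05, and 1, Pfkfb3, was called (median 0.19). These 9 included the muscle-type pyruvate kinase Pkm (0.30, SE 0.08, adjusted p 0.335), the brain-type aldolase Aldoc (0.71, SE 0.20, adjusted p 0.354) and Tpi1 (0.26), Aldoa (0.30), Pfkp (0.49), Ldha (0.22) and Gpi1 (0.19). Of 12 glycogen genes, 8 were higher and 6 of them reached an unadjusted p under 0.05 (median 0.21). Ppp1r3b, the liver subunit that targets protein phosphatase 1 to glycogen, stood at 16.1, 39.7 and 11.9 CPM with GK+hP and at 25.7, 70.9 and 42.9 CPM with GK+hL (1.08, SE 0.26, adjusted p 0.166), and Gys2, the liver glycogen synthase, differed by 0.52 (SE 0.24, adjusted p 0.705).

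Gluconeogenesis had a median of 0.15 over 14 genes, with Fbp1 at 0.35 (SE 0.11, adjusted p 0.440) and the glucose 6-phosphate transporter Slc37a4 at 0.47 (SE 0.18, adjusted p 0.641). Fructose metabolism (7 genes) had a median of 0.28 and the pentose phosphate pathway (9 genes) a median of 0.05. De novo lipogenesis, 19 genes, was divided, 11 higher and 8 lower with a median of 0.05 and no gene at an unadjusted p under 0.05; the fatty acid synthase Fasn had 296, 298 and 363 CPM with GK+hP and 179, 279 and 360 CPM with GK+hL. Among 26 genes of cholesterol biosynthesis and uptake, 9 were higher and 17 lower (median -0.05); 2 (Insig2 and Sqle) were higher and 3 lower (Lss among them) at an unadjusted p under 0.05. Cholesterol excretion and LXR targets (12 genes) had a median of -0.05, bile acid genes (12 genes) 0.18, fatty acid oxidation and ketogenesis (20 genes) 0.05 and mitochondrial carriers (17 genes) 0.09.

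Outside metabolism, the called genes Dusp1, Ddit4 and Bhlhe40 were members of the immediate early, p53 target and circadian lists, and the medians of those lists lay near the median of all genes: 10 of 20 immediate early genes (median -0.02), 8 of 17 p53 targets (median -0.01) and 10 of 18 clock genes (median 0.02) were higher. Of 21 genes of the ATF4 and unfolded protein responses, 15 were higher and 5 of them reached an unadjusted p under 0.05 (median 0.07). Over all genes, 51.6% were higher and 3.88% were higher at that p in the edgeR test. Acute phase genes (20 genes, median 0.09), interferon response genes (25 genes, median -0.05), DNA replication genes (43 genes, median 0.00) and xenobiotic cytochrome P450 genes (16 genes, median 0.16) had no called member. Only 4 of the mitosis genes passed the filter on low counts (median -0.82), all at low levels. Hepatocyte transcription factors (14 genes) had a median of -0.14 with 9 lower, among them Foxa1 (-0.66, SE 0.20, adjusted p 0.425) and Nr5a2 (-0.40, SE 0.14, adjusted p 0.533). None of the cell type marker lists had a called gene, with medians of 0.14 for the 10 hepatocyte, 0.10 for the 12 macrophage and 0.00 for the 10 endothelial markers tested. As these were bulk cultures, a change in the number of cells of a type cannot be told apart from a change in RNA per cell.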

How the data were processed

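RNA from 36 hepatocyte cultures was sequenced; libraries held 3924674 to 10046158 reads. Per the labels, the authors checked reads with FastQC and ran Salmon 1.4.0 on the transcripts of Gencode M26 (GRCm39). They deposited, per transcript and culture, expected counts (estimated reads, not normalized), TPM values normalized within the library, and effective lengths; replicates were not pooled. The strand and trimming settings were not checked here.

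Of 139225 transcripts, 137570 (98.8%) were matched to genes by Ensembl identifier in Gencode vM39 of the same build; the others held 0.392% to 0.639% of the reads and were left out. Gene values, for 52230 genes, are rounded sums of the expected counts. The deposited TPM values served only to look at the files, and effective lengths only for 1 alternative. The 2 cultures per mouse of UN and of GK were summed, which gave 30 samples in 10 conditions.

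The test was edgeR 4.0.16 (R 4.3.3, limma 3.58.1): filterByExpr by condition (12177 genes), TMM (factors 0.901 to 1.094), a quasi-likelihood F test with condition and mouse as terms (18 residual degrees of freedom), and Benjamini-Hochberg adjustment over all genes tested. All 10 conditions entered the fit, so that they share 1 estimate of the spread. A gene was called at an adjusted p under 0.05 and a ratio of 1.3 or more, or 0.7 or less, after the study's thresholds. The SE is the log2 difference divided by the square root of F, and log2 differences within a mouse used a prior count of 2. The mouse was a block because the cultures compared came from the same 3 animals; the paper's methods use DESeq2 and name no such term, so the fit without it and DESeq2 1.42.0 were alternatives. The biological coefficient of variation was 0.231 with the block and 0.323 without it. Deviations of the GK+hL and GK+hP libraries of the same mouse from their condition means correlated at -0.03, 0.12 and -0.02. Between libraries of different mice the correlations ranged from -0.17 to 0.16, a range that holds the same-mouse values. The pairing therefore rests on the animal and not on this correlation. The script was tested on simulated data.

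Named genes were all called genes, the lower genes of smallest p up to 12 (same sign in 3 of 3 mice, at least 10 CPM on average), Gckr, list members and the 5 genes of smallest p in each interaction. The comparison and the lists were chosen with earlier results of these data known. Promoter windows came from RefSeq (GRCm38.p6), gene positions from GRCm39. A few genes of the lists and of the rule are not reported here. Intervals are 95% intervals of the fit.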

Additional observations from a re-analysis of the deposited data

Results flagged for a closer look

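Genes were singled out where all 3 mice moved one way between GK+hL and GK+hP and all 3 the other way in the pair set against it. The values are differences of log2 differences from the edgeR interaction test, and none passed after adjustment over all genes (smallest adjusted p 0.996 for GK against endogenous GK and 0.330 for mouse against human GKRP). Genes of smallest interaction p were looked at by rule, so opposite directions among them are partly a matter of choice.

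Against the pair at endogenous GK, the long non-coding 2610005L07Rik had an interaction of -1.26, the mitochondrial myosin Myo19 -0.39, Tbc1d5 -0.58, Mitd1 1.02 and Hamp2 1.05. Hamp2, a hepcidin gene of iron regulation, stood at 9.39, 19.6 and 21.3 CPM with GK+hL and at 5.44, 12.3 and 11.8 CPM with GK+hP. For the pseudogene Gm2446 the interaction was -8.32, a fitted value that depends on zeros: it had 3.06, 3.72 and 3.27 CPM with GK+hP and 0 in all 3 GK+hL libraries. The pseudogene Gm2436, named after its values were seen, had the reverse, 0 in all 3 GK+hP libraries and 4.51, 7.74 and 4.84 CPM with GK+hL, so both values are uncertain where reads can be split between like copies.

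Against the pair with mouse GKRP, the interaction was 0.58 for Cert1, 0.86 for Tbc1d5, -1.05 for Mitd1, -1.03 for Dctpp1 and -0.95 for Eapp. Tbc1d5 and Mitd1 were thus singled out in both. Tbc1d5 had 13.9, 13.2 and 14.3 CPM with GK+hP and 11.3, 9.98 and 10.5 CPM with GK+hL.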

How the results depend on the processing

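The counts of calls depended strongly on the fit, whereas the direction of the 15 genes did not: all 15 were higher with GK+hL under every setting run. Against 15 higher and 1 lower, there were 0 and 0 without the replicate block (255 genes at an unadjusted p under 0.05, against 838), 0 and 0 with an offset for transcript length, with the 6 libraries alone and with the 5 GK conditions alone, 1 and 0 with each culture as a sample, and 38 and 12 with DESeq2 and the mouse as a term. DESeq2 without the mouse, chosen after seeing the data, gave 3 and 8 (232 genes at an unadjusted p under 0.05). RLE scaling gave 16 and 1, no filter 12 and 1, at least 10 CPM in 3 samples 19 and 1, and no fold threshold 15 and 1. Leaving out 1 mouse gave 0 to 3 genes higher and 0 to 1 lower (640 to 824 at an unadjusted p under 0.05). The interactions with GK and with species called 0 genes in every edgeR fit, 16 and 16 with DESeq2 and the mouse, and 13 and 15 with DESeq2 without it. Fewer samples leave fewer residual degrees of freedom; the other causes were not tested.

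The median of the GK-induced genes ranged from 0.35 to 0.49 when a mouse was left out. Of the fitted values of single genes under all alternatives, 496 kept direction and call, 145 lost the call, 6 gained it and 10 reversed, the last all in uncalled genes. With the length offset these were Pklr (-0.23), Klf10 (-0.58), Slc25a44 (-0.16), Lhx6 (-0.013), Rnf144b (-0.022) and Gckr (-0.63). Slc25a44 was -0.0072 with the 5 GK conditions. With a mouse left out, Lhx6 ranged from -0.10 to 0.36 and Slc25a44 from -0.075 to 0.14. At these depths a gene near 1 CPM rests on few reads.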

Other observations

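A list of 52 genes known as targets of hypoxia-inducible factors was written from textbook knowledge after the values had been seen, so its counts describe these libraries and support nothing. Of the 47 tested, 43 were higher with GK+hL than with GK+hP, 34 of them in 3 of 3 mice, 27 at an unadjusted p under 0.05 and 8 called (Vegfa, Hmox1, Ddit4, Adm, Egln3, Ero1a, Pfkfb3 and Bhlhe40); over all genes these shares were 51.6% higher, 15% in 3 of 3 mice, 3.88% at that p and 0.123% called. The median log2 difference was 0.26, against 0.01 over all genes, and 0.45, 0.20 and 0.30 in mice 1 to 3. At endogenous GK the median was 0.24 with 43 of 47 higher with hL, and with GK and mouse GKRP it was 0.24 with 37 of 47 higher, against 51.9% and 51.5% of all genes. Members that moved the other way included Tfrc, the transferrin receptor, at -0.26 with an unadjusted p of 0.031 in the edgeR test. Ankrd37 went from 1.7, 12.6 and 3.4 CPM to 10.9, 20.8 and 8 CPM, P4ha1, a collagen prolyl hydroxylase, from 23.6, 41.5 and 24.9 CPM to 39.1, 47.7 and 44 CPM, and Efna1, an ephrin, from 11.4, 35.2 and 16.2 CPM to 19.9, 47.7 and 33.5 CPM; none of these was called.

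Gckr with GK alone stood at 54.4 and 69.5 CPM in mice 1 and 2 and at 845 CPM in mouse 3, against 9010 CPM or more in every sample with a mouse GKRP vector. This sample is in neither the GK+hL nor the GK+hP group. It enters their comparison through the shared fit, that is the filter, the scaling factors, the mouse term and the estimate of the spread.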
